A study of Mus musculus with 8 samples.

Results

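RGS proteins (regulators of G protein signalling) switch off signals from G protein-coupled receptors. A receptor loads the G protein alpha subunit with GTP, and the RGS domain speeds up the hydrolysis of that GTP, so that the alpha subunit returns to its resting state and the signal ends. In lymphocytes these proteins are known for setting how strongly and for how long cells answer chemokines, lipid mediators and neuropeptides, and the transcription of several RGS genes is known to respond to receptor, calcium and cAMP signals. The genes examined here are Rgs1, Rgs2, Rgs3, Rgs10, Rgs12, Rgs14, Rgs16, Rgs18 and Rgs19. They were taken by symbol, and the list was written with earlier results of these data known. They make up 9 of the 23 rows named for RGS genes or their binding proteins among 23183 gene rows in the files. All 9 had enough counts to be tested.

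The libraries are bulk poly(A) RNA-seq of group 2 innate lymphoid cells (ILC2s) from the lungs of wild-type C57BL/6 mice (C57BL/6 J in the methods). The methods give the mice as males and females 6 to 10 weeks old that had received IL-33, and the cells were enriched with a kit and grown with IL-2, IL-7 and IL-33 at 10 ng/mL each, so both groups share this stimulation. In 4 libraries the cells received 5 µM Yoda1, a chemical opener of the mechanosensitive channel Piezo1, for 3 h, and in 4 libraries 0.1% DMSO, the solvent. The sources used here do not say whether the 4 libraries of a group came from different mice, so the p-values measure only the spread between these libraries.

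Total counts ranged from 13435521 to 18216729 with DMSO and from 12438009 to 19534653 with Yoda1. Values are given as CPM, read counts scaled to a common library size with TMM factors and expressed per 1e+06 counts, and a gene is called changed when edgeR's quasi-likelihood test gives a Benjamini-Hochberg adjusted p under 0.05 over the 12239 genes tested. By that rule 10.9% of all tested genes were called, 6.04% higher and 4.84% lower in Yoda1 (739 and 592 genes). With upper-quartile factors the split was 505 and 958, and with library size only 553 and 809. The ILC2 markers Gata3, Il1rl1, Rora, Il13 and Il5 were all abundant (mean CPM in DMSO of 565, 1530, 590, 5430 and 3340). Klrg1 (69.9) and Il17rb (14.9) had the lowest levels in that list. Of 14 ILC2 markers 6 were called higher (Il1rl1, Thy1, Ptprc, Il13, Il5 and Areg) and 1 lower (Icos). Their sum ran from 14700 to 15200 CPM with DMSO and from 16600 to 16900 with Yoda1. Il13 averaged 5430 CPM with DMSO and 6670 with Yoda1, and Il5 averaged 3340 and 3670. Gata3, Rora and Id2 were not called (log2 fold changes of 0.0002, 0.034 and -0.024). The part of the higher sum in the changes below was not tested. Markers of other cell types summed to at most 7.20 CPM in any library for B cells, 3.92 for macrophages or monocytes, 7.12 for mast cells or basophils, 0.675 for eosinophils and 0.242 for neutrophils, with Pax5, Marco, C1qa, Prg3, Ear2, S100a8 and S100a9 at 0 counts in every library. Only 5 of the 8 T cell markers had a gene row (Trac, Trbc1 and Trbc2 did not). Of the neutrophil markers, Ly6g had none. T cell markers summed to between 81.1 and 93.8 CPM and NK or CD8 T cell markers to between 762 and 875 CPM. The groups overlapped for both sums. Highest among the NK or CD8 T cell markers were Prf1 (385 CPM with DMSO, 423 with Yoda1) and Gzma (344 and 361), then Eomes (37.8 and 43.8). Ncr1, Klrb1c, Cd8a and Cd8b1 averaged at most 7.1 CPM in either group.

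Rgs16 and Rgs2 changed, and both rose. Because these 2 genes carry the result, the RefSeq promoter windows on GRCm38.p6, from 250 bases before to 50 after the start site, are shown first. RefSeq windows were found for 6 of the 9 genes (10 windows). The Rgs2 window is chr1:144004100-144004399 on the minus strand, and the Rgs16 window is chr1:153740103-153740402 on the plus strand. Capitals mark the GC box GGGCGG and the core TGACG of the cAMP response element, read on both strands.
Rgs2: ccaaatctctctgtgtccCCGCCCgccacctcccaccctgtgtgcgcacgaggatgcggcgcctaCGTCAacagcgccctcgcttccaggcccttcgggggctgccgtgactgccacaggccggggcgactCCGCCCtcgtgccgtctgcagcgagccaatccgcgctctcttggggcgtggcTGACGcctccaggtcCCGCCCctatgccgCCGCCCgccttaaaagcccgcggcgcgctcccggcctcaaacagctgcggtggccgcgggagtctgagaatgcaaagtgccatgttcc
Rgs16: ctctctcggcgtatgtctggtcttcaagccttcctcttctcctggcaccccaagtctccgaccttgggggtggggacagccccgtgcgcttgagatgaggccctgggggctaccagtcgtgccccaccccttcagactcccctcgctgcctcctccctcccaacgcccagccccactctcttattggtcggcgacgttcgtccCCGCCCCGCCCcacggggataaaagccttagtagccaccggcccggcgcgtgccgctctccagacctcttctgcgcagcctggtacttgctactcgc

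The Rgs2 window held the core TGACG at 2 places, 185 and 67 bases before the start site, and the GC box at 4. The Rgs16 window held the GC box at 2 overlapping places, 47 and 42 bases before the start site, and no TGACG. Of 32851 RefSeq windows of this length, 20.8% held TGACG and 35.7% held the GC box. Neither window held the full cAMP response element TGACGTCA (in 1.79% of windows, and overlapping the core), the NFAT core GGAAA (61.3%), the AP-1 site TGANTCA (7.81%), the EGR site GCGGGGGCG (2.91%) or the NR4A site AAAGGTCA (1.51%), all read on both strands, or TATAAA on the promoter strand (8.32%). Among the other genes, a window of Rgs12 held TGACG and an AP-1 site, Rgs3 and Rgs19 windows held GGAAA, and both Rgs3 windows held TATAAA. The GC box was in at least 1 window of each of the 6 genes, changed or not. These are matches of letters only.

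The R4 subfamily, small proteins that are little more than the RGS domain, contains Rgs1, Rgs2, Rgs16 and Rgs18, along with the longer Rgs3. Rgs16, known to act on Gi and Gq and to dampen responses to chemokines, had CPM of 50.6, 48.9, 52.7 and 55.4 in the 4 DMSO libraries and 138, 121, 138 and 138 in the 4 Yoda1 libraries. Every Yoda1 library lay far above every DMSO library. Mean Rgs16 was 51.9 ± 2.78 CPM in the DMSO group and 133.8 ± 8.29 CPM in the Yoda1 group (SD over 4 libraries). The fitted change was 2.58-fold (95% interval 2.41 to 2.76), or 1.37 ± 0.049 (SE) on the log2 scale, with an edgeR adjusted p of 5.92e-19. Rgs16 had the smallest p of all 12239 genes tested and ranked 18 by size among the increases. In bulk RNA, more cells with the transcript and more transcript per cell cannot be told apart. Yoda1 replicate 2 was the lowest of its group, and without it the log2 fold change was 1.41.

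Rgs2, which acts mainly on Gq and is known as a gene induced quickly by calcium and cAMP, had CPM of 21.6, 24.2, 25.3 and 26.8 with DMSO and 38.4, 37.2, 38.8 and 35.3 with Yoda1. The groups did not overlap, and the lowest Yoda1 library exceeded the highest DMSO library by a wide margin. Mean Rgs2 was 24.5 ± 2.17 CPM in the DMSO group and 37.4 ± 1.58 CPM in the Yoda1 group (SD over 4 libraries). The fitted change was 1.53-fold (95% interval 1.40 to 1.68), or 0.61 ± 0.064 (SE) on the log2 scale, with an edgeR adjusted p of 5.19e-08. Both increases kept their call in each of the 16 other settings tried, with log2 fold changes between 1.34 and 1.41 for Rgs16 and between 0.56 and 0.65 for Rgs2.

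Rgs1, which restrains chemokine-driven migration of lymphocytes, was by far the most abundant of the genes, with 9381 to 13892 counts per library. Its CPM were 687, 656, 696 and 712 with DMSO and 757, 723, 760 and 715 with Yoda1. The groups did not overlap, but the lowest Yoda1 library lay only just above the highest DMSO library. The log2 fold change was 0.10 (95% interval 0.031 to 0.18), and it did not pass the threshold (edgeR adjusted p = 0.0594). Without a filter on low counts it did, with an adjusted p of 0.0424, and over all 16 other settings the adjusted p ran from 0.0424 to 0.22. Rgs1, Rgs2 and Rgs16 were the 3 of the 9 genes with all Yoda1 libraries above all DMSO libraries (p = 0.0286 by exact permutation, two-sided, the smallest value possible with 4 against 4). That ordering was seen for 8.44% of all tested genes, and an ordering in either direction for 15.5%.

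Rgs3, an R4 member with longer forms that acts on Gi and Gq, had CPM of 53.6, 49.3, 45.7 and 49.9 with DMSO and 55.7, 52.1, 57.2 and 53.2 with Yoda1. The highest DMSO library, replicate 1, overlapped the Yoda1 group. The log2 fold change was 0.13 (95% interval 0.026 to 0.24, edgeR adjusted p = 0.102), and without DMSO replicate 1 it was 0.17 with an adjusted p of 0.0268 (0.0268 to 0.306 over the 16 other settings). Rgs18, best known from platelets and their precursors, stayed between 31.5 and 34.5 CPM over all 8 libraries. Its log2 fold change was -0.0018 (95% interval -0.12 to 0.11, edgeR adjusted p = 0.989). The platelet markers Pf4, Ppbp and Gp9 had at most 3 counts in any library, while Itgb3, which other cells also use, averaged 116 CPM in DMSO and 125 CPM in Yoda1 libraries, and Gp1ba was lower with Yoda1 (log2 fold change -0.71, 25 to 65 counts per library).

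**Figure D1:**
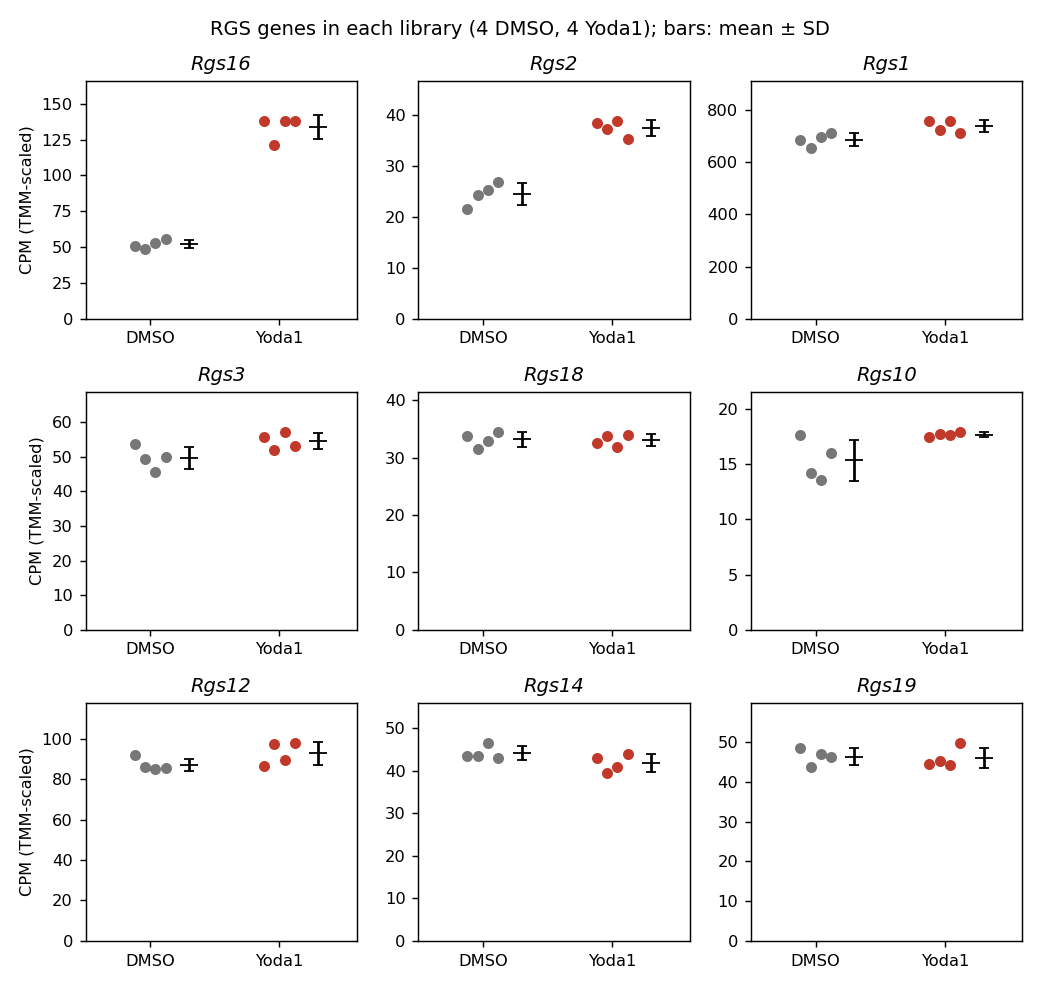
CPM after TMM scaling (vertical axes, each from 0) of the 9 RGS genes in the 4 DMSO (grey) and 4 Yoda1 (red) libraries, with the mean and SD of each group beside the points. The Yoda1 points of Rgs16 (121 to 138) and Rgs2 (35.3 to 38.8) lie clear of the DMSO points, those of Rgs1 lie just above them, and the groups overlap for the other 6 genes.

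The R12 subfamily contains Rgs10, a short protein that acts on Gi, and Rgs12 and Rgs14, large scaffolds that also bind Ras proteins and inactive Gi. None of the 3 passed the threshold. Rgs10 had CPM of 17.6, 14.2, 13.6 and 16.0 with DMSO and 17.4, 17.7, 17.6 and 18.0 with Yoda1, so that the DMSO libraries were spread widely and the Yoda1 libraries hardly at all. The SD was 12.1% of the mean with DMSO and 1.21% with Yoda1, where counting error alone gives about 6.42% and 6.06%. The log2 fold change was 0.21 (95% interval 0.040 to 0.38, edgeR adjusted p = 0.103). Without DMSO replicate 1 it was 0.28 with an adjusted p of 0.0216 (0.0216 to 0.295 over the 16 other settings), so with Rgs3 the count of higher genes went from 2 to 4 when that library was left out.

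Rgs12 had CPM of 91.7, 85.8, 84.9 and 85.6 with DMSO and 86.5, 97.3, 89.3 and 97.9 with Yoda1. The groups overlapped, with DMSO replicate 1 high and Yoda1 replicates 2 and 4 above the rest. The log2 fold change was 0.096 (95% interval 0.0037 to 0.19, edgeR adjusted p = 0.18). Rgs14 averaged 44.0 ± 1.64 CPM in DMSO and 41.7 ± 2.07 CPM in Yoda1 libraries (SD, n = 4), with a log2 fold change of -0.077 (95% interval -0.19 to 0.031, edgeR adjusted p = 0.383). Rgs19 of the RZ subfamily, which acts on Gi and Gz, averaged 46.4 ± 2.05 and 46.0 ± 2.59 CPM (SD, n = 4), with a log2 fold change of -0.0053 (95% interval -0.11 to 0.10, edgeR adjusted p = 0.964). For Rgs14, Rgs18 and Rgs19 the log2 intervals all span 0 and lie between -0.19 and 0.11.

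In all, 2 of the 9 genes (22.2%) were called, both higher, beside 10.9% of all tested genes called in either direction. The median log2 fold change of the 9 was 0.10, against -0.0053 over all tested genes, and 6 of the 9 had an unadjusted p under 0.05, as did 25.3% of all tested genes. No gene of the 9 was called lower.

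**Figure D2:**
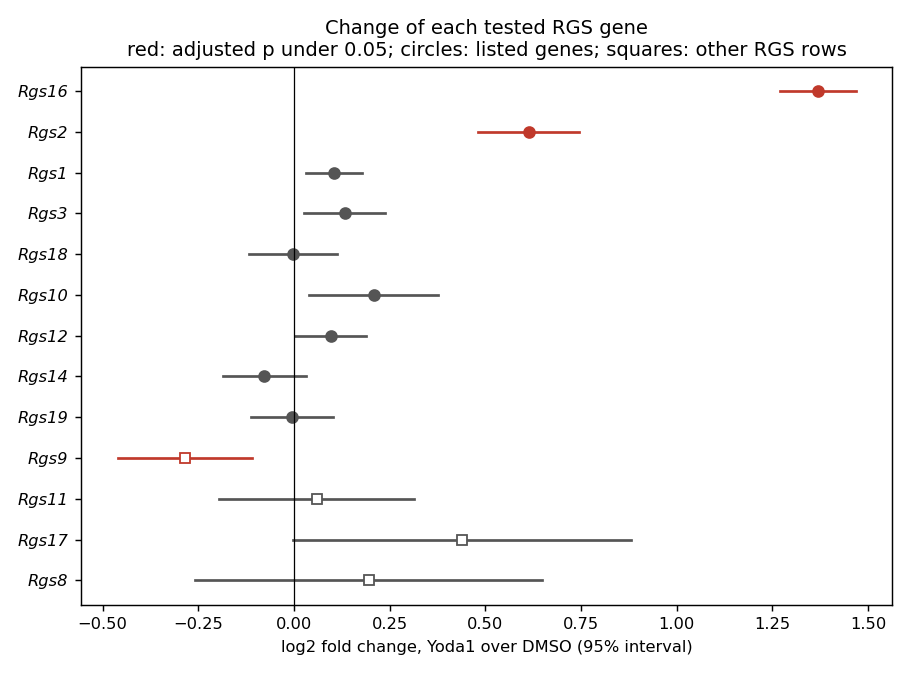
Log2 fold change, Yoda1 over DMSO, with its 95% interval (horizontal axis) for the 9 listed RGS genes (circles) and the 4 other RGS rows that were tested (open squares), in red where the adjusted p is under 0.05. Rgs16 (1.37) and Rgs2 (0.61) stand to the right of the other listed genes, which lie between -0.08 and 0.21, and Rgs9 is the only red point below 0.

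Ratios of counts inside a library do not depend on the scaling between libraries. The ratio of Rgs16 to Rgs1 was 0.0755 ± 0.0018 in the DMSO group and 0.181 ± 0.010 in the Yoda1 group (SD over 4 libraries), which differ by 1.26 on the log2 scale. The ratio of Rgs2 to Rgs1 was 0.0356 ± 0.0028 and 0.0506 ± 0.00089, a log2 difference of 0.51. Rgs16 also rose more than Rgs2, from 2.13 ± 0.15 counts of Rgs16 per count of Rgs2 to 3.58 ± 0.26, a log2 difference of 0.75. In each of the 3 ratios all Yoda1 libraries lay above all DMSO libraries (p = 0.0286 by exact permutation, two-sided, and the same after adjustment over the 3 ratios). These ratios were chosen after the values of the genes were seen, so their separation adds no further support. Their p is also the smallest possible with 4 against 4.

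Levels of different genes were compared per length, as CPM per kb of the principal GENCODE M21 transcript. With DMSO the order was Rgs1 (179 ± 6.12 CPM per kb), Rgs19 (30.7 ± 1.36), Rgs16 (22.2 ± 1.19), Rgs14 (18.7 ± 0.70), Rgs10 (17.5 ± 2.11), Rgs18 (16.4 ± 0.64), Rgs12 (15.9 ± 0.58), Rgs3 (12.8 ± 0.83) and Rgs2 (8.09 ± 0.72), with SD over n = 4. Among the neighbours in this order, the libraries overlapped for Rgs14 and Rgs10, for Rgs10 and Rgs18, and for Rgs18 and Rgs12, and did not overlap for the other pairs. With Yoda1, Rgs16 reached 57.2 ± 3.54 CPM per kb, above all libraries of Rgs19 (30.5 ± 1.71). Rgs2 reached 12.4 ± 0.52 and was still the lowest of the 9, with every library below those of Rgs3 (13.4 to 14.7). With the length of all annotated exons in place of the principal transcript, an alternative chosen after seeing the data, Rgs16 (22.2 CPM per kb) already stood above Rgs19 (20.8) with DMSO, and Rgs3 (4.597 with DMSO, 5.05 with Yoda1) in place of Rgs2 (6.74 and 10.3) was the lowest in both groups.

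Summed over all 23 RGS rows, the level was 330.5 ± 10.4 CPM per kb in DMSO and 386.0 ± 7.34 CPM per kb in Yoda1 libraries (SD, n = 4). Rgs16 made up 6.71% ± 0.22 of this sum with DMSO and 14.8% ± 0.68 with Yoda1, while Rgs1 made up 54.2% ± 0.60 and 49.8% ± 1.07. With the length of all annotated exons the shares were 10.9% ± 0.33 and 22.8% ± 0.97 for Rgs16, and 48.7% ± 0.42 and 42.4% ± 1.03 for Rgs1, with the same directions. The shares add up to a fixed total, so a gene that keeps its level loses share when Rgs16 gains. Without Rgs16 the sum was 308.4 ± 9.48 and 328.8 ± 4.25 CPM per kb.

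**Figure D3:**
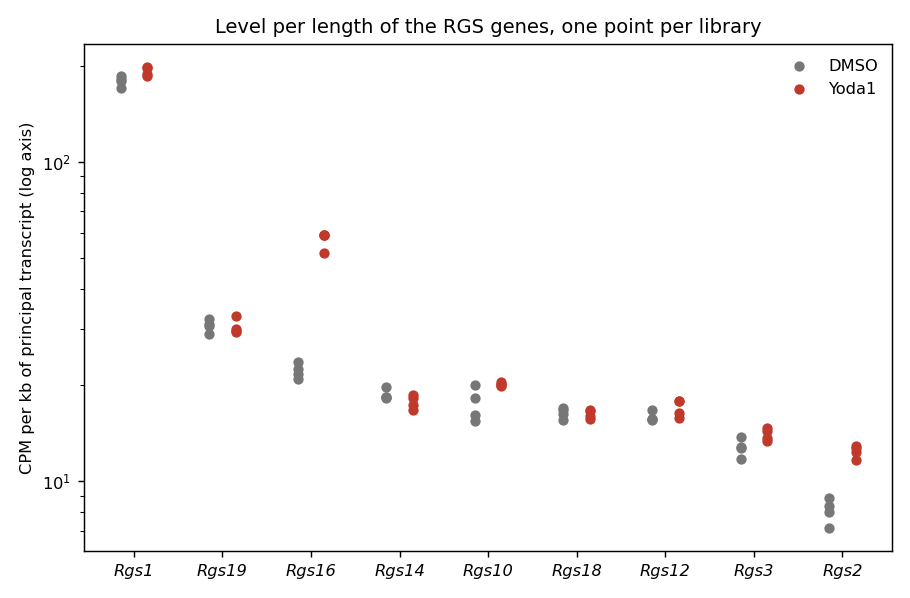
CPM per kb of the principal transcript (vertical log axis) for the 9 genes, ordered by their mean with DMSO, with 1 point per library (grey DMSO, red Yoda1). Rgs1 stands near 179 to 192 in both groups, Rgs16 moves from 22.2 to 57.2, past Rgs19, and Rgs2 moves from 8.09 to 12.4 and stays lowest, while with the length of all annotated exons Rgs16 is above Rgs19 in both groups and Rgs3 is lowest.

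The genes differ in position and architecture. In GENCODE M21 (GRCm38), 4 of the 9 lie on chromosome 1. Rgs2 (143999338 to 144004161), Rgs1 (144242296 to 144249242) and Rgs18 (144752683 to 144775435) sit on the minus strand in a row of 5 RGS genes with Rgs13 and Rgs21, over 776 kb. Of these, Rgs2 was called and its neighbours Rgs1 and Rgs18 were not, and Rgs13 and Rgs21 had at most 2 counts in any library. Rgs16 (153740349 to 153745468, plus strand) lies farther along the chromosome, and Rgs8 starts 87.3 kb upstream of it. The rest are Rgs3 on chromosome 4 (62559847 to 62704001), Rgs12 on 5 (34949445 to 35039644), Rgs10 on 7 (128373621 to 128418758), Rgs14 on 13 (55369732 to 55384687) and Rgs19 on 2 (181688419 to 181693977). All are protein-coding.

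Rgs2 (4.82 kb) and Rgs16 (5.12 kb) have the shortest gene spans of the 9, with 5 exons in the principal transcript, as in Rgs1, Rgs10 and Rgs18, but Rgs19 (5.56 kb) and Rgs1 (6.95 kb) are nearly as short and were not called. Rgs3 (144 kb) and Rgs12 (90.2 kb) are the longest. Exons of the antisense gene Gm28513 overlap 236 bases of Rgs16 exons, and those of Gm43791 overlap 467 bases of Rgs12 exons. The methods name a directional library kit, but the strand setting of the counting is not given in the sources used here. Neither antisense gene has a row of its own, so reads from these pairs cannot be told apart in the counts.

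The 3' UTRs were scanned for ATTTA, the core of AU-rich elements that mark many short-lived messages. Per kb of 3' UTR, Rgs18 held 4.43, Rgs1 3.33, Rgs3 2.59, Rgs16 2.48 and Rgs2 2.13, against a median of 1.36 over 10749 tested genes. Rgs19 held 1.46, Rgs12 0.874, and Rgs10 and Rgs14 held 0. The longer form TATTTAT occurred 3 times in Rgs16, 2 times in Rgs18, once in Rgs1 and Rgs3, and not in Rgs2, and 29.9% of the genes held it. All 5 R4 members were thus above the median, whether they changed or not.

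Of the 14 other RGS rows, 4 were tested. Rgs9, an R7 protein of photoreceptors and striatal neurons, was lower, averaging 14.1 ± 0.36 CPM in DMSO and 11.6 ± 1.13 CPM in Yoda1 libraries (SD, n = 4). On the log2 scale Rgs9 differed by -0.28 ± 0.086 (SE) with an edgeR adjusted p of 0.0298, with all Yoda1 libraries (9.93 to 12.5 CPM) below all DMSO libraries (13.8 to 14.6 CPM). The call was lost in 7 of 16 other settings, with adjusted p from 0.0156 to 0.115 over all of them. Leaving out DMSO replicate 1, 2 or 3 or Yoda1 replicate 1 or 2 each lost it, with adjusted p of 0.0545, 0.0608, 0.0612, 0.115 and 0.0533. Rgs11 (log2 fold change 0.059), Rgs17 (0.44, 95% interval -0.0022 to 0.88, 19 to 53 counts per library) and Rgs8 (0.20) did not pass. Rgs17 ran from 0.26 (without DMSO replicate 3) to 0.64 (without DMSO replicate 1) and Rgs8 from 0.12 (without Yoda1 replicate 4 or DMSO replicate 2) to 0.32 (without Yoda1 replicate 2) when single libraries were left out, with no call. Rgs4, Rgs5, Rgs6, Rgs7, Rgs7bp, Rgs9bp, Rgs13, Rgs20, Rgs21 and Rgs22 had 0 to 6 counts per library and were not tested.

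The other genes of the pathway were taken as lists by known function, written with earlier results of these data known. Of 21 tested G protein subunits, 1 (4.76%) was called, beside 10.9% of all tested genes. This was Gnas, which encodes the stimulatory alpha subunit Gs. It was higher by 0.14 ± 0.034 (SE) on the log2 scale, with an edgeR adjusted p of 0.00735. Of the alpha subunits on which RGS proteins act, Gnai2 (537 CPM with DMSO, 532 with Yoda1), Gnai3 (257 and 259) and Gnaq (70.2 and 67.8) were expressed and did not pass. Their log2 fold changes were -0.014, 0.011 and -0.056, and they were named after their values were seen. Other alpha subunits that did not pass included Gnai1 (-0.061), Gnaz (-0.15), Gna11 (-0.16), Gna14 (-0.53, 22 to 48 counts per library) and Gna15 (0.062). Of 15 receptor kinases, arrestins and G alpha helpers, which end or assist signalling by other means, 0 were called by edgeR (2 with an unadjusted p under 0.05, beside 25.3% of all tested genes, and 0 by DESeq2 or limma-voom).

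Of 24 tested effectors, 3 (12.5%) were called, beside 10.9% of all tested genes. Adcy7, an adenylyl cyclase of blood cells, was higher (log2 fold change 0.16), as was the cAMP phosphodiesterase Pde8a (0.18, edgeR adjusted p = 0.0496), and the adenylyl cyclase Adcy5 was lower (-0.24). The call for Pde8a was lost in 11 of 16 other settings (adjusted p 0.0132 to 0.211), among them without DMSO replicate 1, 2 or 4 and without Yoda1 replicate 1, 2 or 4. Of 39 tested G protein-coupled receptors, 15 (38.5%) were called, 10 higher and 5 lower, beside 10.9% of all genes. As the receptor list was written with earlier results known, these shares are a description only. The largest called changes were in Gpr174, a receptor for a lysophospholipid (log2 fold change 0.57, edgeR adjusted p = 4.84e-05), Gpr65, a proton sensor that couples to Gs (0.47, adjusted p = 2.69e-07), Calcrl, the receptor chain for CGRP and adrenomedullin (0.38, adjusted p = 5.91e-07), Gpr171 (0.27, adjusted p = 8.5e-06), Vipr2, a receptor for VIP (0.27, adjusted p = 0.0301), and Nmur1, the neuromedin U receptor (-0.27, adjusted p = 0.00602). The call for Vipr2 was lost in 7 of 16 other settings (adjusted p 0.00522 to 0.2), among them without DMSO replicate 2, 3 or 4 and without Yoda1 replicate 1 or 4. The median log2 fold change was -0.046 for the subunits, -0.031 for the kinase list, 0.0058 for the effectors and 0.072 for the receptors. The tested receptors lay between -0.37 and 0.57 and the subunits between -0.53 and 0.14, all closer to 0 than Rgs16 and Rgs2.

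**Figure D4:**
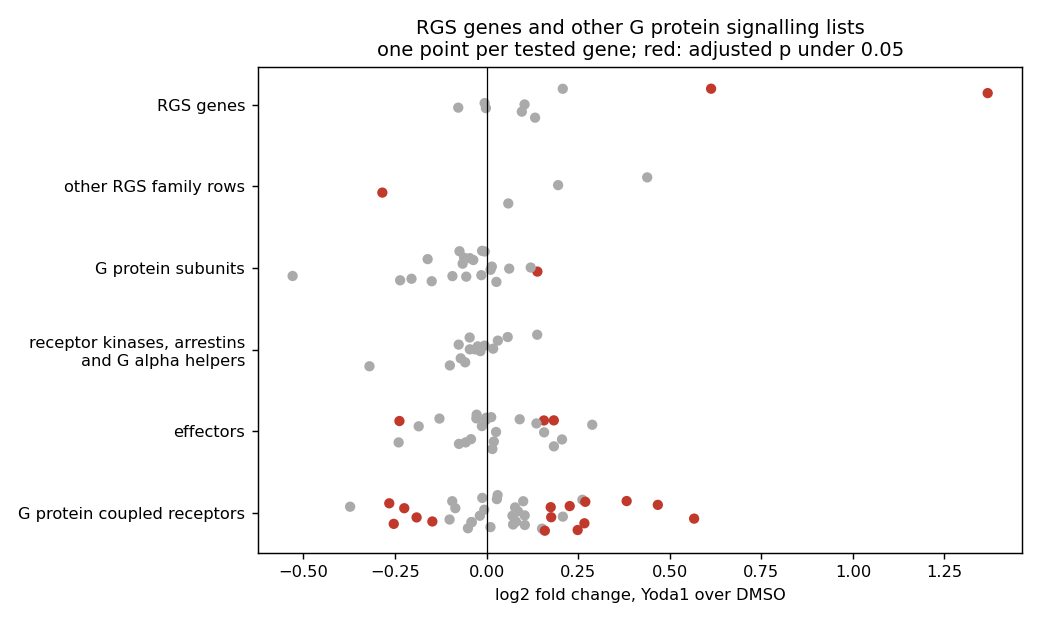
Log2 fold change, Yoda1 over DMSO (horizontal axis), of every tested gene in the RGS list and in the lists of other RGS rows, G protein subunits, kinases and arrestins, effectors and receptors, with genes at an adjusted p under 0.05 in red. Rgs16 at 1.37 and Rgs2 at 0.61 lie farthest right, and the red receptors lie on both sides of 0 (10 higher, 5 lower).

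By the Pearson correlation of log2 CPM over the 8 libraries, the genes with a pattern most like that of Rgs16 were Ifng, Cyp51, Ccl3, Crtam and Ccl4, with r between 0.993 and 0.995. The 8 libraries form 2 treatment groups and share their depth and scaling, so a high r is a description of genes that differ between the groups with little spread inside them. Ifng had a log2 fold change of 1.35, Crtam of 1.47, Ccl3 of 2.01, Ccl4 of 2.01 and Cyp51 of 0.31. Among markers of NK or CD8 T cells, 2 of 7 were called higher, beside 6.04% of all tested genes. They were Eomes (log2 fold change 0.21) and Prf1 (0.14), while Ncr1 had 39 to 93 counts per library and its log2 fold change was -0.24. The part of such cells in the rise of Rgs16 was not tested.

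**Figure D5:**
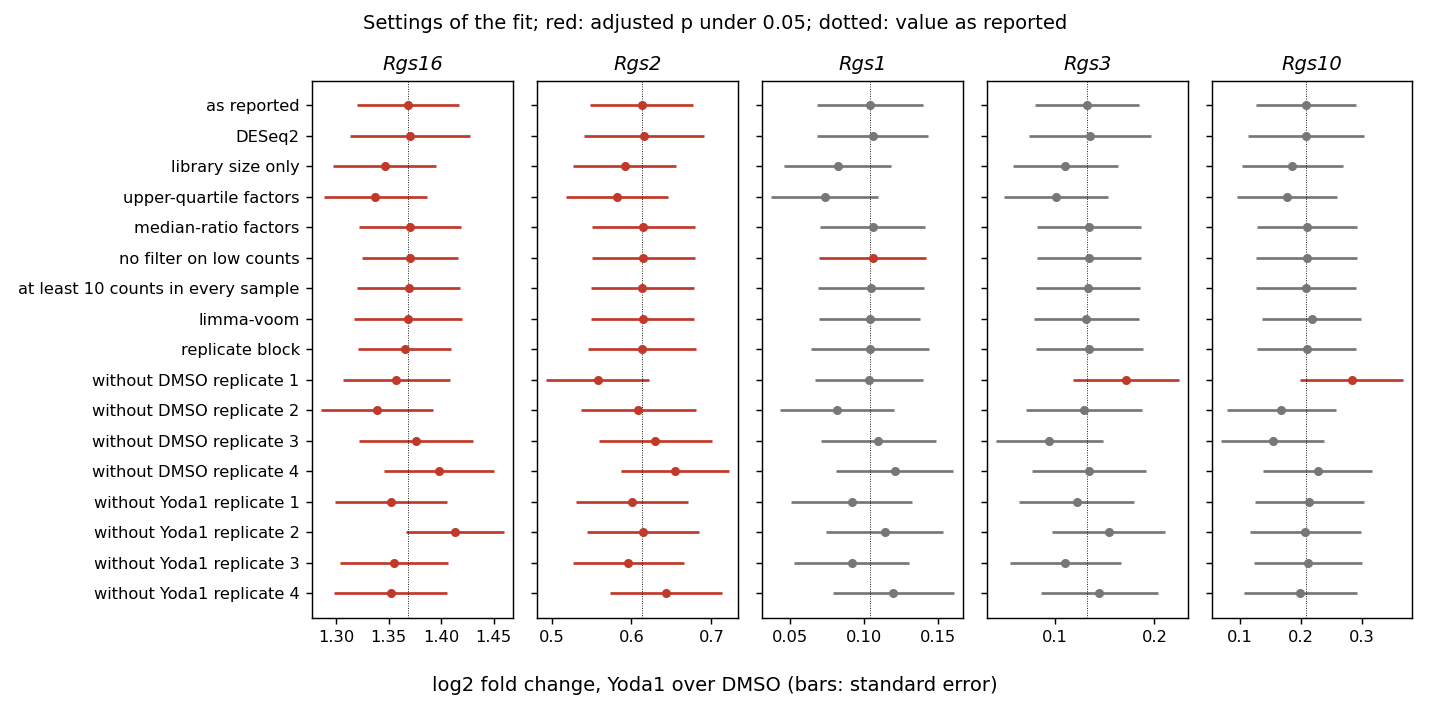
Log2 fold change, Yoda1 over DMSO, with its standard error (horizontal axes, not from 0) for 5 RGS genes as reported and under 16 other settings (rows), in red where the adjusted p is under 0.05. Rgs16 and Rgs2 are red throughout, while Rgs1 is red only without a filter on low counts and Rgs3 and Rgs10 only without DMSO replicate 1.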

How the data were processed

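The authors deposited, for each of 8 samples, raw read counts per gene symbol without normalization. According to the methods, reads were checked with FastQC, handled with FASTX Trimmer and BB Map, and analysed with Cufflinks and Cuffdiff, and the submitters' processing notes name TopHat and mm10. Versions, annotation and strand setting are not given in the sources used here. From these counts, genes were filtered with filterByExpr (minimum count 10, minimum total 15), scaled with TMM and compared in R 4.3.3 with edgeR 4.0.16 (robust quasi-likelihood test, Benjamini-Hochberg at 0.05). The standard error is the log2 fold change divided by the root of F, and 95% intervals use the moderated degrees of freedom and are not adjusted. The alternatives were DESeq2 1.42.0, limma-voom (limma 3.58.1), other scalings and filters, a fit blocked on replicate number, and fits that drop 1 library. The test was checked on simulated data.

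The members, lists and motifs were chosen with earlier results of these data known. Named genes were the 9 RGS genes, other tested RGS rows, up to 6 called genes per list by absolute change, and the 5 genes most correlated with Rgs16. Counts are of reads, so precision is that of counting and of 4 libraries per group. One count was worth 0.0514 to 0.0807 CPM. Every pair of libraries in a group differed by more than sampling noise (chi-square per gene 2.04 to 6.94), so all 8 were kept.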

Additional observations from a re-analysis of the deposited data

Results flagged for a closer look

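Over 13 tested RGS genes and both treatments there were 26 sets of 4 values, and in 4 of them a single library was far from the rest, where chance gives about 1.3. Yoda1 replicate 2 was low for Rgs16 (121 CPM, the next library 138) and for Rgs8 (1.40, the next 2.02, on 23 to 41 counts per library). DMSO replicate 1 was high for Rgs12 (91.7, the next 85.8), and DMSO replicate 3 was high for Rgs14 (46.5, the next 43.3). No cause was tested.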

How the results depend on the processing

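Rgs16 and Rgs2 kept their direction and call in all 16 alternatives. With upper-quartile factors 958 genes in all were called lower, in place of 592. Rgs9, the lower RGS row, was called 0 times with DESeq2 (adjusted p = 0.0605) and 0 times with the replicate block (adjusted p = 0.0544). In the kinase and arrestin list 1 gene was called lower with library size only and 1 with upper-quartile factors. The higher effectors numbered 1 with DESeq2, library size only, upper-quartile factors, limma-voom and the replicate block, and the lower effectors 2 with library size only and 2 with upper-quartile factors. The lower receptors numbered 3 with DESeq2. When each library was left out, the counts ran from 367 to 677 for all lower genes (367 without DMSO replicate 2, 374 without Yoda1 replicate 4), 2 to 4 for higher RGS genes, 0 to 1 for other RGS rows lower, 1 to 2 for higher and 0 to 1 for lower subunits, 0 to 1 for lower kinases and arrestins, 1 to 2 for higher and for lower effectors, and 3 to 5 for lower receptors. Values near 0 changed sign: Rgs18 was 0.00021 with median-ratio factors, 8.7e-05 without a filter and 0.0016 with limma-voom, and without single libraries Rgs18 ran from -0.027 to 0.017, Rgs19 from -0.050 to 0.019 and Rgs11 from -0.0015 to 0.14. The cause of these shifts was not tested.

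The labels do not say whether samples with the same replicate number were paired. The correlation of their deviations from the group means ran from -0.028 to 0.071, which cannot settle whether they were. With the replicate number as a block, 548 genes were called higher and 418 lower, and the log2 fold change was 1.36 for Rgs16 and 0.61 for Rgs2. Counting error alone gives Rgs8 and Rgs17 a spread of 15.4% to 19.6% of the mean, and the DMSO libraries of Rgs17 had 33.9%.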
